A study of Mus musculus with 10 samples.

Results

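The cell cycle genes described here are 41 genes whose transcripts accumulate in dividing cells, 18 that act around the start and during S phase and 23 that act in G2 and mitosis. They were taken by symbol as known cell cycle genes, at a time when earlier results of these data were known. All 41 were among the 35705 genes of the table and the 13841 kept for testing at an average of 1 TPM or more (TPM, an abundance per transcript length scaled to a fixed library total). The libraries came from the medial knee cartilage of individual mice. The 5 wild-type controls are compared with 5 Mir324-null mice, which are labelled null for the microRNA miR-324. Neither group was treated. No value of the Mir324 transcript was analysed here, so the genotypes rest on the labels. The labels do not state the age, sex, strain, litter or way the null allele was made.

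A dividing cell switches gene expression in waves. Before S phase, E2F transcription factors released from the retinoblastoma proteins turn on cyclin E, the licensing factors and MCM helicase that open replication origins, the replication machinery, and the enzymes that make deoxynucleotides. Later, the B-MYB and FOXM1 complexes turn on the mitotic cyclins, kinases, kinetochore proteins and spindle motors through a promoter element called CHR, often beside CCAAT boxes bound by NF-Y. Mature articular chondrocytes rarely divide, whereas the precursors of red cells, granulocytes and B cells in the marrow next to the joint divide often.

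Promoter sequences were compared between the 2 groups of genes. RefSeq promoter windows (GRCm38.p6, 250 bases before to 50 after the gene start) were given for 34 of the 41 members. The windows of 4 G2/M members and 2 S phase members are shown because they carry the elements of their wave, each 5′ to 3′ on the strand of the gene. Capitals mark every match, on either strand, to the CHR element (TTTGAA), to the CCAAT box (CCAAT) or to an E2F core (written TTCCCGC, else TTGGCGC, else TTGCCGC, else TTCGCGC).
Ccnb2, cyclin B2, chr9:70421505-70421804, minus strand: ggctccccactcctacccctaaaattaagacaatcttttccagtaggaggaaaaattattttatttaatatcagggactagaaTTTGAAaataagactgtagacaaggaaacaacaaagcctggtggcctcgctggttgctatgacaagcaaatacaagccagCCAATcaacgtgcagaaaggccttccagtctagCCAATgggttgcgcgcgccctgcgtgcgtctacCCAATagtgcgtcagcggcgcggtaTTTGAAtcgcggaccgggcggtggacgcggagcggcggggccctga
Plk1, polo-like kinase, chr7:122159185-122159484, plus strand: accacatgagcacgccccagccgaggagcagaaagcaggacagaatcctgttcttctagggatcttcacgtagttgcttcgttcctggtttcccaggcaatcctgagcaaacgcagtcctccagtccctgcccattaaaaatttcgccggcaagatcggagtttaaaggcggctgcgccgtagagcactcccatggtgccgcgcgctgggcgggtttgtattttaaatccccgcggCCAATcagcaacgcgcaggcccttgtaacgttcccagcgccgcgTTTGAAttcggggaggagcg
Cdk1, the mitotic cyclin-dependent kinase, chr10:69352863-69353162, minus strand: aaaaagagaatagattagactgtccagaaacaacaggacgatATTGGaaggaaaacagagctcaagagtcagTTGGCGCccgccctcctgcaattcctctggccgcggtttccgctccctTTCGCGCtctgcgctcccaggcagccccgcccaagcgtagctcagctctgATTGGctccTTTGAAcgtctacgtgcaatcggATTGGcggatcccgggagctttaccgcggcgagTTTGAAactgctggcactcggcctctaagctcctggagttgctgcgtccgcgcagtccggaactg
Mki67, the proliferation antigen Ki-67, chr7:135716330-135716629, minus strand: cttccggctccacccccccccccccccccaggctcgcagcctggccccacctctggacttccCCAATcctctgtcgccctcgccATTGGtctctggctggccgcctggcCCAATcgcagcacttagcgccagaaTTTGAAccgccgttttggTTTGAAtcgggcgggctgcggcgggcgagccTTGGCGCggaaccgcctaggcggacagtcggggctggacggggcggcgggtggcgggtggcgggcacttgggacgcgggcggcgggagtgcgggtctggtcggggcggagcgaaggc
Mcm5, an MCM helicase subunit, chr8:75109259-75109558, plus strand: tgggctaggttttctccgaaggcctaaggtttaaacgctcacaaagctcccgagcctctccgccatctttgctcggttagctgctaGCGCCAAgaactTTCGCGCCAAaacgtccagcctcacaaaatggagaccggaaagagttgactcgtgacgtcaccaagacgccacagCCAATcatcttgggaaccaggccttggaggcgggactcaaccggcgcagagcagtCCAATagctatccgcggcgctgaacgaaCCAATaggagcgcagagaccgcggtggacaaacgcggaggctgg
Rrm2, the small subunit of ribonucleotide reductase, chr12:24708004-24708303, plus strand: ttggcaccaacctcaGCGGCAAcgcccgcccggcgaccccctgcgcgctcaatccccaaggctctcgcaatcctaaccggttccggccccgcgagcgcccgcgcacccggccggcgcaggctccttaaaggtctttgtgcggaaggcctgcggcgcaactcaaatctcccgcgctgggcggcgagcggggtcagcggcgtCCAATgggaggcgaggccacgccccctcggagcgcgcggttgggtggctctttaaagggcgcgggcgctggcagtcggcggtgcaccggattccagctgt

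Among the G2/M members with a window, 14 of 19 (73.7%) held a CHR element and 17 of 19 (89.5%) a CCAAT box. All 14 with a CHR element held a CCAAT box too. Of the 27025 genes in the promoter table, 20.2% held a CHR element, 41.1% a CCAAT box and 8.97% both. Each of the 14 had a CHR element that began within 100 bases upstream to 50 bases downstream of the start. In Ccnb2 the 3 CCAAT boxes began 87, 54 and 21 bases upstream of the start and the nearer CHR element at base 5 after it. Among S phase members the balance was different, with an E2F core in 8 of 15 (53.3%), a CCAAT box in 9 of 15 (60%) and a CHR element in 2 of 15 (13.3%), Mcm2 and Cdc45. An E2F core was found in 4 of 19 G2/M windows (21.1%), those of Mki67, Cdk1, Ccnb1 and Hmmr, and in 10.9% of all genes with a window. Mcm5 held 3 E2F cores, 2 of which share bases. The base composition of the windows was not matched in these shares, and a match is a run of letters rather than a bound site.

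**Figure D1:**
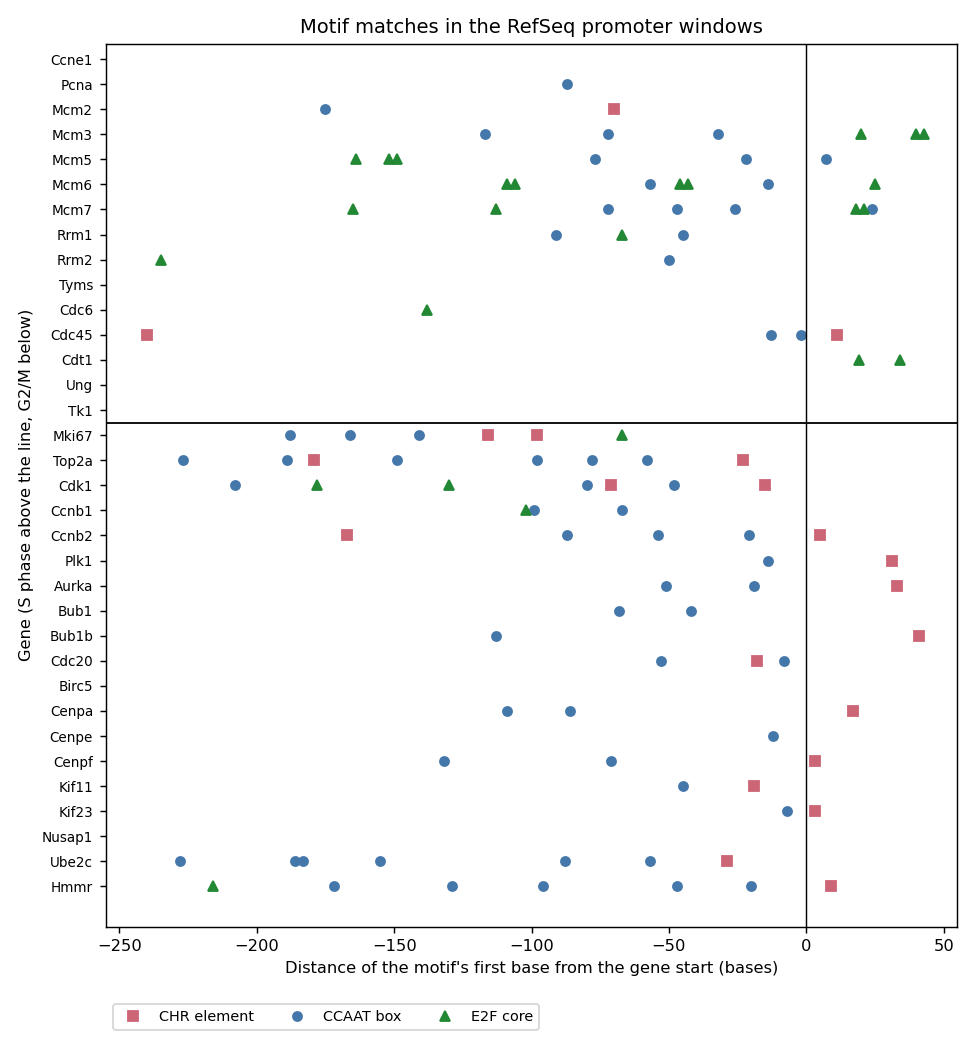
Positions of CHR elements, CCAAT boxes and E2F cores in the promoter windows of 34 cell cycle genes, with the distance of the first base of each match from the gene start on the x axis and 1 gene per row. CHR elements cluster around the start in the lower block of 19 G2/M genes, and E2F cores are mostly in the upper block of 15 S phase genes.

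Sequencing depth is unknown because the table holds TPM. Each library totalled 1000000 TPM. Of this, 9 erythroid markers summed to 75313 to 133491 TPM in wild-type mice against 107351 to 176579 TPM in the null mice. Markers of mature neutrophils, 7 in number, summed to 53500 to 107703 TPM in wild-type mice against 53172 to 109497 TPM in the null mice. Of 12 cartilage markers, 9 passed the TPM filter, and they included Col2a1, Acan, Sox9 and Prg4, while Matn1 and Matn3 were at 0 in at least 1 library. The samples labelled articular cartilage and chondrocyte therefore carried cartilage transcripts and also many transcripts of marrow cells. In such bulk samples, fewer cells of a type and less RNA per cell cannot be told apart. Over all genes, 0 had a limma adjusted p under 0.05, and at a raw p below 0.05 there were 592 genes higher and 1011 lower in null mice, against 876 and 885 after median ratio scaling and 1228 and 591 after rescaling without haemoglobin genes.

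All 41 cell cycle genes had a higher mean in null than in wild-type mice, by small amounts. Differences, given throughout as null minus wild-type on the log2(TPM + 1) scale, ran from 0.05 for Cenpf to 0.51 for Ccne1, with a median of 0.26 for the 18 S phase genes and 0.26 for the 23 G2/M genes. The median over all genes tested was -0.05, and 40% of them had a difference above 0. None of the 41 passed correction: 0 had a limma p under 0.05 after Benjamini-Hochberg adjustment over the 13841 genes (background 0%), and the smallest adjusted p among them was 0.277. At a raw p below 0.05 there were 19 of 41, all higher in null mice, where 4.28% of all genes tested were called higher and 7.3% lower. All 5 null mice lay above the wild-type mean in 32 of the 41 genes, a pattern whose share over all genes tested was not counted. In 2 genes, Ccne1 and Cdt1, every null mouse lay above every wild-type mouse, a pattern met by 0.881% of all genes tested. These genes are regulated together, so their counts are not independent observations. They were also chosen with earlier results of these data known, so the counts beside the shares of all genes are a description and not a test.

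The S phase genes are taken in the order in which their products act. Ccne1 and Ccne2 encode E-type cyclins, which activate CDK2 at the G1 to S transition. Ccne1 (ENSMUSG00000002068, chromosome 7, 38097984 to 38107534, minus strand) had 25.3, 25.4, 38.0, 28.3 and 35.6 TPM in wild-type mice 1 to 5 and 39.5, 43.3, 42.6, 43.4 and 47.7 TPM in the null mice 1 to 5. The lowest null mouse was above the highest wild-type mouse, and wild-type mice 3 and 5 came nearest. The means were 30.5 ± 5.88 and 43.3 ± 2.91 TPM (SD, n = 5 each), a difference of 0.51 (SE 0.124, limma adjusted p = 0.277, exact permutation p = 0.00794, the lowest value that 5 against 5 mice can give). Over the alternatives, the limma adjusted p of Ccne1 ran from 0.0946 (without wild-type replicate 3) to 0.908. Ccne2 averaged 40.1 ± 11.6 and 53.1 ± 13.3 TPM (SD, n = 5), a difference of 0.41 with an SE of 0.223, and its groups overlapped broadly.

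Cdt1 and Cdc6 load the MCM helicase onto origins, a step called licensing. Cdt1 had a mean of 38.4 ± 5.20 TPM in wild-type mice against 45.9 ± 2.0 TPM in the null mice (SD, 5 mice each), a difference of 0.26 (SE 0.101, limma adjusted p = 0.371, exact permutation p = 0.00794). Its highest wild-type value, 43.3 TPM, was just under its lowest null value, 43.8 TPM. Cdc6 averaged 28.6 ± 6.0 and 37.9 ± 3.40 TPM (SD, n = 5), a difference of 0.41 (SE 0.143, limma adjusted p = 0.338).

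The 6 subunits of the MCM helicase, which unwinds DNA at the fork, behaved alike: differences lay between 0.20 (Mcm6) and 0.31 (Mcm5), and 3 of the 6, Mcm4, Mcm5 and Mcm7, had a raw limma p below 0.05, where 4.28% of all genes tested were called higher. Mcm5 (ENSMUSG00000005410, chromosome 8, 75109569 to 75128439, plus strand) had 90.5, 79.5, 106, 78.7 and 106 TPM in wild-type and 117, 124, 115, 104 and 107 TPM in the null mice. Wild-type mice 3 and 5 were within the null range and the other wild-type mice below it. The difference was 0.31 (SE 0.106, limma adjusted p = 0.338, exact permutation p = 0.0317). Mcm2 (ENSMUSG00000002870, chromosome 6, 88883474 to 88898780, minus strand) had 55.7, 51.0, 74.8, 56.4 and 87.7 TPM in wild-type and 75.8, 76.7, 77.2, 77.0 and 81.4 TPM in the null mice. Null mice were tightly grouped, and wild-type mouse 5 was above all of them. The Mcm2 difference was 0.28 (SE 0.137, limma adjusted p = 0.467, exact permutation p = 0.127). The spread of the 6 subunits, as the median SD of log2(TPM + 1), was 0.228 in wild-type and 0.0531 in null mice.

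At the replication fork, Pcna encodes the sliding clamp, and Gins2 and Cdc45 encode partners of the MCM helicase. Pcna (ENSMUSG00000027342, chromosome 2, 132249162 to 132253314, minus strand) was the most abundant S phase gene per transcript length, at 266, 258, 357, 295 and 373 TPM in wild-type and 322, 364, 342, 368 and 411 TPM in the null mice. Its groups overlapped, with a difference of 0.23 (SE 0.118, limma adjusted p = 0.484, exact permutation p = 0.103). Cdc45 and Gins2 had differences of 0.21 and 0.13. The Gins2 sum is led by a retained-intron transcript, which held 60.6% of its TPM.

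Deoxynucleotides are made by ribonucleotide reductase (Rrm1, Rrm2), thymidylate synthase (Tyms) and thymidine kinase (Tk1), and uracil is removed from DNA by Ung. Rrm2, the subunit that limits the reductase in S phase (ENSMUSG00000020649, chromosome 12, 24708241 to 24714146, plus strand), had 154, 169, 216, 157 and 216 TPM in wild-type and 234, 237, 211, 242 and 263 TPM in the null mice. Only null mouse 3 was below the 2 highest wild-type mice. The difference was 0.39 (SE 0.115, limma adjusted p = 0.310, from 0.152 to 0.961 over the alternatives; exact permutation p = 0.0238). Tyms (ENSMUSG00000025747, chromosome 5, 30058202 to 30073617, minus strand) had 92.3, 85.5, 138, 107 and 123 TPM in wild-type and 123, 115, 121, 133 and 154 TPM in the null mice, with wild-type mouse 3 second highest of all 10. Its difference was 0.26 (SE 0.135, limma adjusted p = 0.500, exact permutation p = 0.135), and 49.3% of its TPM came from a transcript annotated for nonsense-mediated decay. Rrm1, Ung and Tk1 had differences of 0.19, 0.19 and 0.15.

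In G2 and mitosis, Cdk1 bound to cyclins A2, B1 and B2 drives entry into division. Ccnb1 (ENSMUSG00000041431, chromosome 13, 100778650 to 100786570, minus strand) had 62.3, 68.1, 92.9, 69.4 and 89.8 TPM in wild-type and 93.4, 95.0, 91.5, 96.8 and 95.5 TPM in the null mice. Wild-type mouse 3 was above null mouse 3, and otherwise the groups were apart. The difference was 0.32 (SE 0.114, limma adjusted p = 0.342, exact permutation p = 0.0159). Ccnb2 and Ccna2 had differences of 0.29 and 0.30, and both had a raw limma p below 0.05, where 4.28% of all genes tested were called higher. Cdk1 itself (ENSMUSG00000019942, chromosome 10, 69335146 to 69352938, minus strand) had 128, 120, 167, 139 and 159 TPM in wild-type and 165, 155, 142, 169 and 168 TPM in the null mice. Its groups overlapped, with a difference of 0.18 (SE 0.103, limma adjusted p = 0.556, exact permutation p = 0.119), smaller in value than those of its cyclins, a contrast that was not tested.

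Aurora kinase A (Aurka), with its activator Tpx2, builds the spindle, Plk1 triggers mitotic entry, and Aurora kinase B (Aurkb), with survivin (Birc5), corrects chromosome attachment. Aurka (ENSMUSG00000027496, chromosome 2, 172356190 to 172370535, minus strand) had 35.0, 29.9, 45.9, 31.8 and 42.5 TPM in wild-type and 50.4, 50.4, 44.5, 48.6 and 47.1 TPM in the null mice. Only null mouse 3 was below a wild-type mouse. The difference of 0.39 (SE 0.120, limma adjusted p = 0.319, from 0.135 to 0.918 over the alternatives; exact permutation p = 0.0159) was the largest value among the G2/M genes. Plk1, Birc5 and Tpx2 had differences of 0.31, 0.22 and 0.22, while Aurkb had 0.12 with an SE of 0.157, and 3 of its 5 null values exceeded the wild-type mean.

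Exit from mitosis is driven by the anaphase-promoting complex with its activator Cdc20 and its ubiquitin-conjugating enzyme Ube2c. Cdc20 (ENSMUSG00000006398, chromosome 4, 118432901 to 118437352, minus strand) had 54.2, 56.4, 61.2, 45.3 and 63.2 TPM in wild-type and 71.7, 71.5, 71.5, 72.5 and 62.3 TPM in the null mice. Null mouse 5 lay apart from the other null mice and just below wild-type mouse 5. The difference was 0.32 (SE 0.0998, limma adjusted p = 0.319, from 0.195 to 0.908 over the alternatives; exact permutation p = 0.0159). Ube2c, at 260 ± 30.7 and 312 ± 22.1 TPM (SD, n = 5), was the most abundant G2/M gene per transcript length and had a difference of 0.26.

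Kinetochore genes differed from each other in value, a contrast that was not tested. Cenpa encodes the histone H3 variant that marks centromeres (ENSMUSG00000029177, chromosome 5, 30666777 to 30674830, plus strand) and had 125, 124, 145, 116 and 147 TPM in wild-type and 163, 166, 153, 147 and 166 TPM in the null mice. Null mouse 4 and wild-type mouse 5 met at 147 TPM, with the other null mice above. The difference was 0.28 (SE 0.0870, limma adjusted p = 0.319, from 0.188 to 0.936 over the alternatives; exact permutation p = 0.0159). Of the Cenpa TPM, 43.0% came from a transcript annotated for nonsense-mediated decay. Cenpe, a kinetochore motor, and Cenpf, a large coiled-coil protein, had the smallest values of the 41, at 0.08 and 0.05 with SEs of 0.190 and 0.185. Of the Cenpf TPM, 60.3% came from a transcript of 358 bases, a short model that weighs heavily in a per-length unit. The checkpoint kinases Bub1 and Bub1b had differences of 0.23 and 0.14, and Bub1 was the G2/M gene of lowest abundance, between 6.54 and 14.9 TPM in wild-type mice and between 7.91 and 19.6 TPM in the null mice.

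Of the usual proliferation markers, Mki67 encodes Ki-67, a coat of mitotic chromosomes (ENSMUSG00000031004, chromosome 7, 135689784 to 135716361, minus strand), and had 117, 126, 180, 122 and 172 TPM in wild-type and 188, 187, 160, 192 and 164 TPM in the null mice. Wild-type mice 1, 2 and 4 were below every null mouse, and wild-type mice 3 and 5 were within the null range. The difference was 0.33 (SE 0.132, limma adjusted p = 0.379, exact permutation p = 0.0873). Top2a, topoisomerase II alpha (ENSMUSG00000020914, chromosome 11, 98992943 to 99024189, minus strand), had 221, 176, 229, 165 and 234 TPM in wild-type and 246, 252, 206, 212 and 205 TPM in the null mice. Here 3 wild-type mice were above 3 null mice, with a difference of 0.14 (SE 0.118, limma adjusted p = 0.728, exact permutation p = 0.302). The spindle and cytokinesis genes Kif11, Kif20a, Kif23, Nusap1 and Hmmr had differences of 0.23, 0.34, 0.18, 0.26 and 0.29.

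**Figure D2:**
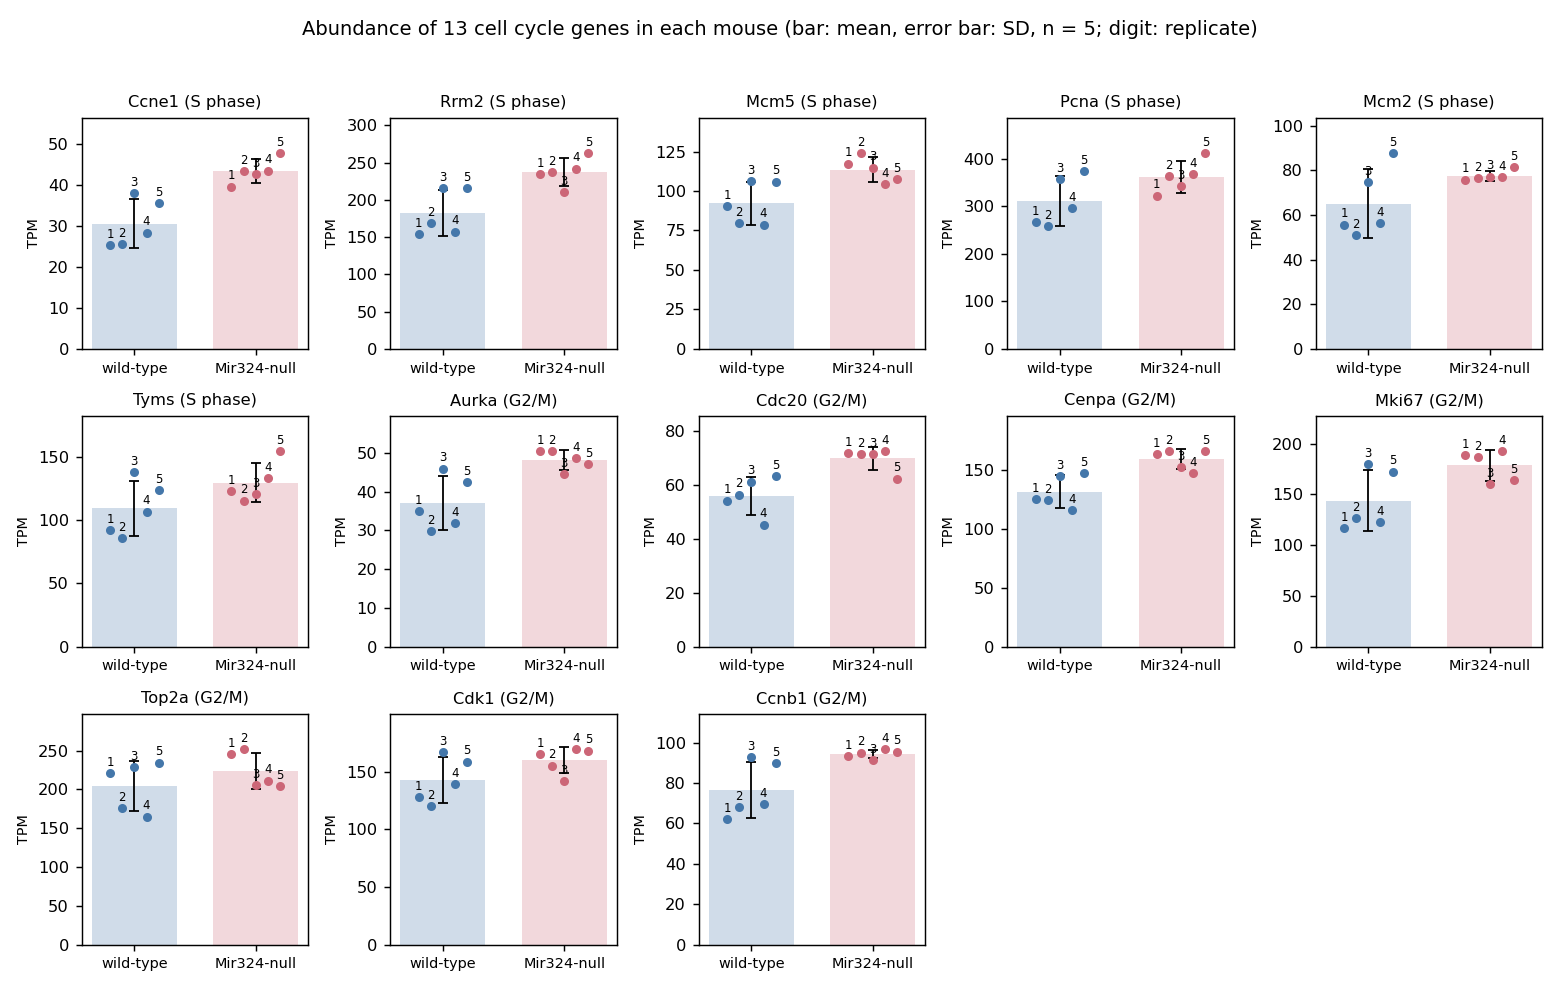
TPM of 13 cell cycle genes in each mouse, with wild-type in blue and Mir324-null in red (bar mean, error bar SD, n = 5, digit replicate number). Wild-type mice 1, 2 and 4 are the low ones in most panels, and the lowest Ccne1 value of a null mouse (39.5 TPM) is above the highest wild-type value (38.0 TPM).

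**Figure D3:**
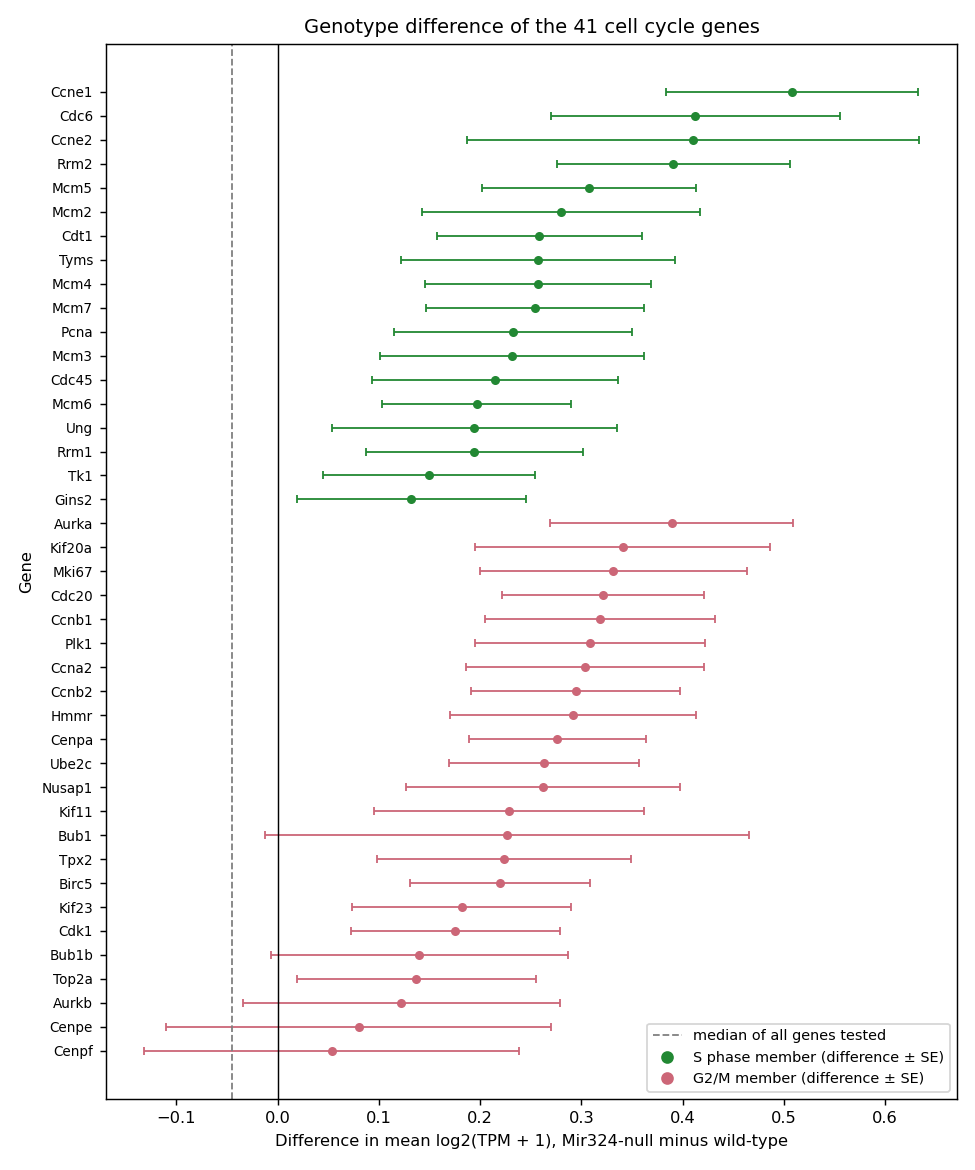
Difference in mean log2(TPM + 1) between Mir324-null and wild-type mice for the 41 cell cycle genes, with the SE from limma. Every point lies to the right of 0 and of the median of all genes tested (dashed, -0.05), from 0.05 for Cenpf to 0.51 for Ccne1.

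The members were then searched for sites of the missing microRNA. The Mir324 hairpin gives 2 mature strands, shown with their seeds (bases 2 to 8) in capitals, from RefSeq (GRCm38.p6, chromosome 11, plus strand).
mmu-miR-324-5p: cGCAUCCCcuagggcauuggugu
mmu-miR-324-3p: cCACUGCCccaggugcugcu
A match to the seed of miR-324-5p (GGGATGC) was in the longest annotated 3′ UTR of 6 of 41 members (14.6%), against 9.39% of 12615 protein-coding genes tested. A match for miR-324-3p (GGCAGTG) was in 3 of 41 (7.32%), against 17.4%. Sites of members with miR-324-5p matches follow, with the seed match in capitals.
Ccne1, base 395 of 531: tgagcaagtgtGGGATGCagagcccacag
Cdk1, base 845 of 3352: tagcagtcaaaGGGATGCctgagacgact
Cdk1, base 885 of 3352: aactaaaggctGGGATGCttaagtttgtc
Top2a, base 260 of 511: tgactctactcGGGATGCcttcccaacac
The Ccne1 match is the only one of these that is followed by an A, the form called an 8mer. The differences of the 6 genes with a miR-324-5p match were 0.51 (Ccne1), 0.26 (Tyms), 0.22 (Tpx2), 0.18 (Cdk1), 0.14 (Top2a) and 0.05 (Cenpf). Mcm6, Tpx2 and Tyms held a miR-324-3p match, and the Mcm6 match was followed by an A. The longest annotated 3′ UTR need not be the expressed one. Of the Cdk1 TPM, 97.6% came from a transcript of 1253 bases in all, shorter than the UTR of 3352 bases that was searched. Of the Mcm6 TPM, 97.6% came from a transcript of 2910 bases. Whether the main transcript of a member holds its match was not checked. A seed match is a description of the sequence, and binding of the microRNA was not measured.

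The 41 genes were also described by 1 score per phase in each mouse. The S phase score, the mean log2(TPM + 1) of the 18 genes, was 5.92, 5.73, 6.20, 5.84 and 6.18 in wild-type mice 1 to 5 and 6.20, 6.29, 6.22, 6.20 and 6.31 in null mice 1 to 5. The G2/M score was 5.92, 5.85, 6.30, 5.86 and 6.23 in wild-type and 6.36, 6.36, 6.17, 6.25 and 6.21 in null mice. Wild-type mice 1, 2 and 4 were low in both scores, and wild-type mice 3 and 5 were near the null mice. Score differences were 0.27 for S phase and 0.24 for G2/M, given as a description with no test. Together the 41 genes held 3071 to 4129 TPM in wild-type mice against 3949 to 4317 TPM in the null mice.

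Single genes showed the same low wild-type mice. Each gene had its lowest value in wild-type mouse 2 (17 genes), 1 (14 genes) or 4 (10 genes), and in no other mouse. Highest values fell in null mice for 36 genes and in wild-type mouse 3 or 5 for the remaining 5. Wild-type mouse 3 was at or above the lowest null value in 35 of 41 genes and wild-type mouse 5 in 31, against 8, 4 and 2 genes for wild-type mice 1, 2 and 4. These counts per mouse were made for the members only. Their shares over all genes tested were not counted, so whether the pattern is particular to cell cycle genes is not known. Null mice were more alike: the SD of log2(TPM + 1) was smaller in null than in wild-type mice in 39 of 41 genes, against 52.7% of all genes tested, with medians of 0.251 in wild-type and 0.113 in null mice for the members and 0.234 and 0.227 over all genes. The balance of the phases, as S phase minus G2/M score, was -0.06 ± 0.0552 in wild-type and -0.03 ± 0.105 in null mice (SD, n = 5), with null mouse 1 the lowest at -0.16 and null mouse 5 the highest at 0.10.

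**Figure D4:**
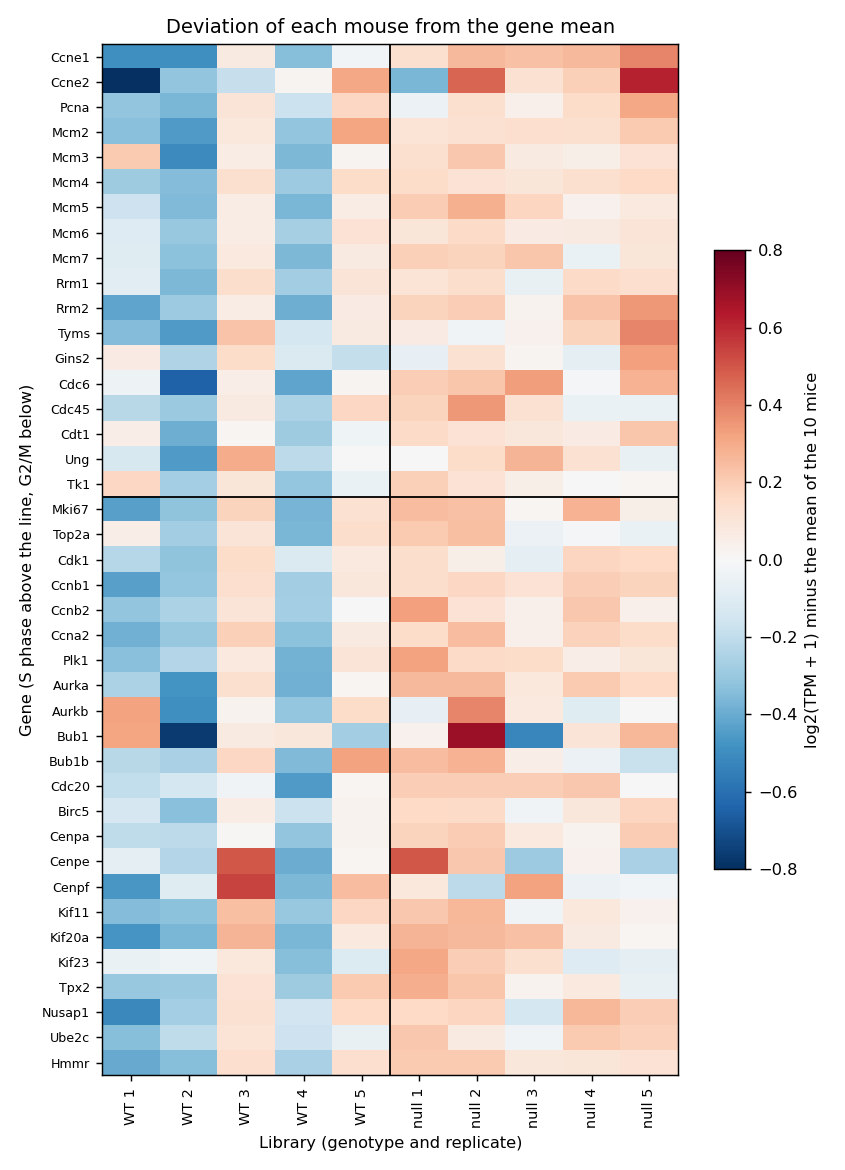
Deviation of log2(TPM + 1) from the mean of the 10 mice for the 41 cell cycle genes, with S phase genes above the line, G2/M genes below it, and 1 column per mouse. Columns of wild-type mice 1, 2 and 4 are blue (low) in most rows, and the columns of wild-type mice 3 and 5 resemble the null columns.

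Other genes of the cell cycle were taken from 4 lists, of which 40 of 43 genes passed the TPM filter. Their differences were above 0 in 30 and below 0 in 10, with a median of 0.11. Again 0 passed (limma adjusted p, Benjamini-Hochberg), and at a raw p below 0.05 there were 9 higher and 0 lower. Over all genes tested, 40% were above 0, 4.28% were called higher and 7.3% lower. The factors of the RB, E2F and DREAM list that control both waves had 12 of 15 above 0 and a median of 0.16. Checkpoint and mitotic entry genes had 11 of 13 above 0 and a median of 0.15. G1 cyclins and kinases, by contrast in value, had 4 of 7 above 0 and a median of 0.07, and CDK inhibitors 3 of 5 and 0.10.

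Among these genes, E2f4, the main E2F of the repressive complexes, had 77.1, 76.7, 96.1, 70.0 and 84.5 TPM in wild-type and 100, 107, 104, 107 and 109 TPM in the null mice. All null mice were above all wild-type mice, as in 3 of these 40 genes and 0.881% of all genes tested, with a difference of 0.39 (SE 0.0900, limma adjusted p = 0.277, from 0.0909 to 0.851 over the alternatives; exact permutation p = 0.00794). E2f1, an activator of S phase genes, had 16.3, 14.7, 17.6, 14.8 and 18.4 TPM in wild-type and 20.4, 20.6, 19.5, 20.5 and 20.1 TPM in the null mice. Its groups did not overlap either (difference 0.30, SE 0.0904, limma adjusted p = 0.316, from 0.199 to 0.908 over the alternatives; exact permutation p = 0.00794). Fzr1, the activator of the anaphase-promoting complex in G1, had 54.3, 78.9, 85.1, 62.5 and 71.8 TPM in wild-type and 99.6, 85.8, 88.9, 97.5 and 98.4 TPM in the null mice. Again the groups were apart, with a difference of 0.43 (SE 0.119, limma adjusted p = 0.298, from 0.133 to 0.961 over the alternatives; exact permutation p = 0.00794). Mybl2, which encodes B-MYB, Cdc25b, a phosphatase that activates CDK1, and Chek2, a DNA damage kinase, had differences of 0.41, 0.35 and 0.41. Their groups overlapped, with limma adjusted p-values of 0.342, 0.319 and 0.355.

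The growth-arrest gene Cdkn1a, which encodes the CDK inhibitor p21, had 53.3, 28.8, 18.4, 35.8 and 28.4 TPM in wild-type and 21.3, 29.2, 33.6, 20.1 and 16.3 TPM in the null mice. Its highest value was in wild-type mouse 1, and the groups overlapped (difference -0.40, SE 0.260, limma adjusted p = 0.609, exact permutation p = 0.254). Ccnd1, cyclin D1, which carries mitogen signals into the cycle, had 15.8, 20.0, 11.9, 14.9 and 9.09 TPM in wild-type and 9.34, 13.8, 16.1, 9.40 and 12.6 TPM in the null mice, with overlapping groups and a difference of -0.20 (SE 0.205, limma adjusted p = 0.791). Cdkn2a and Cdkn2b, the inhibitors at the senescence locus, averaged 0.411 and 0.483 TPM in wild-type mice against 0.179 and 0.274 TPM in the null mice, below the filter.

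Some marker lists of other cell types also differed between the groups in value. All 9 erythroid markers, none at 0 in any library, had a difference above 0 with a median of 0.49, and the erythroid score was 8.57, 8.86, 9.22, 9.13 and 8.86 in wild-type and 9.44, 9.21, 9.50, 9.61 and 9.53 in null mice. Among wild-type mice, mouse 1 was low in the cell cycle scores and lowest in the erythroid score, and mouse 3 was highest in all of them. Mouse 4 was low in the cell cycle scores but not in the erythroid score. Mouse 5 was high in the cell cycle scores and near mouse 2 in the erythroid score. The 11 osteoblast and osteocyte markers went the other way (0 above 0, median -0.91, scores 7.76 to 8.85 in wild-type and 6.85 to 7.96 in null mice, 10 at a raw limma p below 0.05). Cartilage markers, those of the sampled tissue itself, were below 0 in 8 of 9 that passed the filter, the exception being Comp at 0.17. Their median was -0.66, and 7 had a raw limma p below 0.05. The summed level was 2037 to 6328 TPM in wild-type mice against 1681 to 3031 TPM in the null mice. Most of that sum was Prg4, at 1564 to 5075 TPM in wild-type mice and 1335 to 2319 TPM in the null mice. All 6 osteoclast markers tested were below 0 (median -0.97, all 6 at a raw limma p below 0.05, summed level 1435 to 3243 against 942 to 1933 TPM). All 6 adipocyte markers were below 0 too (median -0.52, 4 at a raw limma p below 0.05, summed level 336 to 560 against 244 to 412 TPM). The erythroid list had 8 of 9 at a raw limma p below 0.05. In the same fit, 4.28% of all genes tested were called higher and 7.3% lower at that threshold. None of the markers of these 5 lists had a limma adjusted p under 0.05. With the erythroid score as a covariate, 37 of 41 members were above 0, the median was 0.16 against 0.14 for all genes, and 0 members had a raw limma p below 0.05, where 6.8% of all genes tested were called higher. Adjusting instead for the score of osteoblasts and osteocytes, the same counts were 37 and 0, the medians 0.11 and 0.08, and the share of all genes called higher 5.04%. Both covariates differ between the genotypes, so that they take up part of the genotype term.

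Other marrow lists had smaller or opposite values. All 8 B cell precursor markers had a difference below 0 (median -0.43, summed level 254 to 323 TPM in wild-type mice against 134 to 315 TPM in the null mice). The 6 neutrophil precursor markers were also below 0, at a median of -0.06 (1984 to 3852 and 1723 to 4036 TPM), and the 6 markers of haematopoietic progenitors had a median of 0.12 (114 to 122 and 103 to 157 TPM). In none of these 3 lists was a marker at 0 in any library. Of the remaining lists, fibroblast markers had 4 of 6 above 0 and a median of 0.39. All 5 endothelial and all 4 plasma cell markers tested were below 0, at medians of -0.21 and -0.19. Macrophage, T cell and mature neutrophil markers had medians of 0.05, -0.05 and -0.07. Only 1 skeletal muscle marker passed the filter, with a difference of 0.41. The part of any cell type in the cell cycle differences was not tested.

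**Figure D5:**
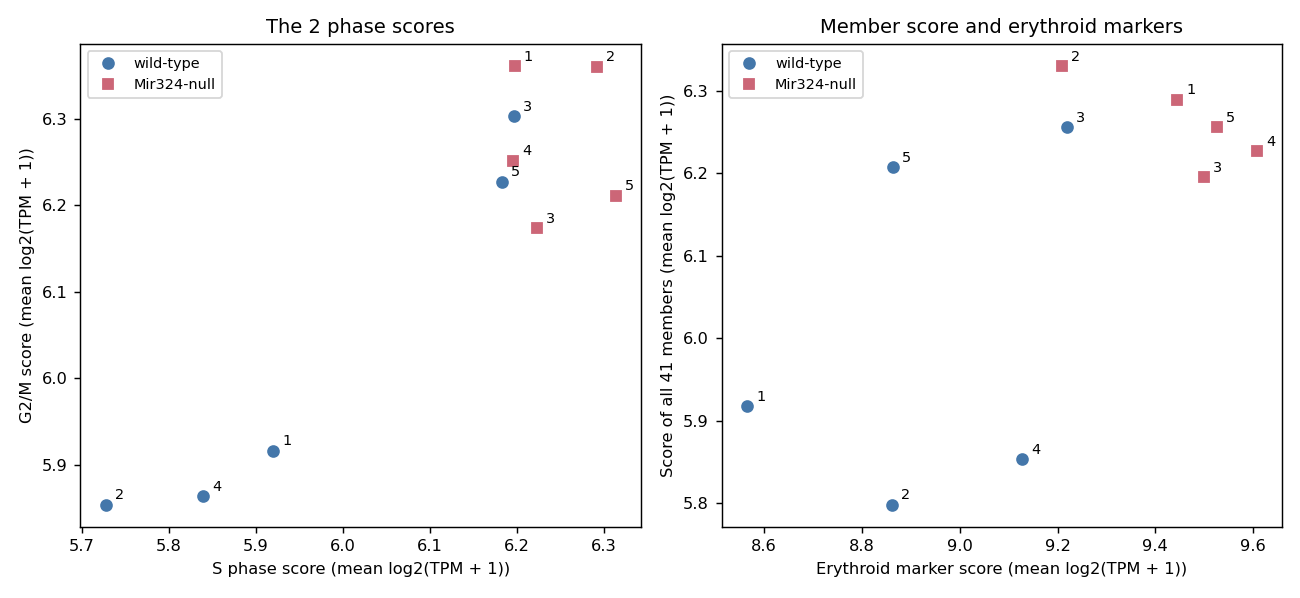
Left, G2/M score against S phase score for each mouse; right, score of all 41 cell cycle genes against the score of 9 erythroid markers (mean log2(TPM + 1), wild-type circles, Mir324-null squares, digit replicate number). Wild-type mice 1, 2 and 4 lie apart at low cell cycle scores. In the right panel wild-type mouse 1 has the lowest erythroid score, 8.57, and wild-type mouse 4 has 9.13, near that of wild-type mouse 3.

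The count of 19 members at a raw p below 0.05 depended on single mice. It was 11 on leaving out wild-type replicate 2, 10 on leaving out wild-type replicate 4 and 12 on leaving out null replicate 2, with 3.5%, 3.25% and 3.19% of all genes called higher in the same fits. After rescaling without haemoglobin genes it was 33, and the share of all genes called higher was 8.64% in place of 4.28%. Values of Pcna, Tyms, Ccnb1 and Ccnb2 are uncertain because the annotation names pseudogene copies of them that can share reads, 12 members overlap another gene, and no source used here says whether reads were assigned by strand.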

How the data were processed

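RNA of the medial knee cartilage cap was sequenced in 5 wild-type mice and 5 Mir324-null mice, each giving 1 library. The authors deposited TPM values (abundance per transcript length and per fixed library total) for 116912 versioned Ensembl mouse transcripts. Per the submitters' processing notes, kallisto and DESeq2 were used. These notes name GRCh38, a human build, although the transcripts are mouse, and the index used is not given in the sources used here. TPM keeps no read counts, so depth is unknown and counting intervals and count models do not apply.

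Transcripts were matched without version to GENCODE M21 (GRCm38), of which 115440 matched. The 1472 unmatched ones held 0.275% to 0.356% of a library. Sums per gene gave 35705 genes, and the 13841 with a mean of at least 1 TPM were analysed as log2(TPM + 1). One listed gene, Lin54, had no matched transcript and is not analysed here. Genotypes were compared with limma 3.58.1 in R 4.3.3 (trend on mean expression, two-sided, Benjamini-Hochberg over all genes tested, threshold 0.05), with no covariate. A two-sided exact permutation test over the 252 splits into 5 and 5, whose smallest p is 0.00794, was run per gene. Scores are means of log2(TPM + 1) over a list and carry no test. The fit was tested on simulated data. Python 3.11.15 was used for everything else (scipy 1.17.1, numpy 2.4.6, pandas 2.3.3).

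The members and lists were chosen with earlier results of these data known. Values are given in every library for the 3 members of each phase with the smallest limma p and for Mki67, Top2a, Cdk1, Ccnb1, Pcna, Mcm2, Rrm2 and Tyms. Of the other cell cycle genes, the 6 with the smallest p under 0.05 and Cdkn1a, Ccnd1 and E2f1 are named by rule, and any further gene was chosen after its values were seen. Alternatives were a pseudocount of 0.1 TPM, no filter, a filter of 5 TPM, median ratio scaling, rescaling without haemoglobin genes, a replicate block, leaving out each mouse, the exact test and, added after seeing the data, 2 marker scores as covariates.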

Additional observations from a re-analysis of the deposited data

Results flagged for a closer look

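In 102 groups of 5 mice, 1 per genotype for each gene and score checked, 4 had a mouse set apart from the rest by a gap over 0.71 of the group's range, where chance gives about 1 in 20. All 4 were among null mice. Null mouse 5 had 81.4 TPM of Mcm2 against 75.8 to 77.2 TPM in the other null mice, and 62.3 TPM of Cdc20 against 71.5 to 72.5 TPM. Null mouse 3 had 157 TPM of Rrm1 against 177 to 183 TPM in the other null mice, and 66.4 TPM of Nusap1 against 82.0 to 88.4 TPM.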

How the results depend on the processing

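No cell cycle member passed an adjusted p of 0.05 (limma, Benjamini-Hochberg, or exact permutation) under any of the 19 alternatives run. The smallest adjusted p was 0.0946 (limma), without wild-type replicate 3. The exact test cannot decide this, because its smallest p of 0.00794 is too coarse for adjustment over all genes tested. Even Ccne1, which reached that smallest p, had an exact adjusted p of 0.399. Of 779 member values over the alternatives, 766 kept their direction and 13 were reversed, the latter in Tyms, Cdk1, Nusap1, Cenpe and Cenpf. The fits with no filter, a filter of 5 TPM or the replicate block, and the exact test, leave a member's difference unchanged by construction. Their values could not reverse and say nothing about stability.

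Leaving out 1 mouse gave 10 to 28 members at a raw p below 0.05 in place of 19. In the same fits 3.19% to 4.92% of all genes were called higher, against 4.28% with all mice. Members above 0 were 39 to 41, and the median difference of the members lay between 0.20 and 0.31. Over all genes, the count of genes changed between genotypes was 0 to 1 on leaving out 1 mouse (0 with all mice) and 2 with the osteoblast and osteocyte covariate. With the erythroid covariate 1046 genes, and with the osteoblast and osteocyte covariate 808 genes, had a raw p below 0.05, against 1603 with neither. Members at a raw p below 0.05 were 33 after rescaling without haemoglobin genes, 25 after median ratio scaling and 0 with either covariate. Of all genes, 8.64% were called higher after that rescaling and 6.34% after median ratio scaling. The share was 6.8% with the erythroid covariate and 5.04% with the osteoblast and osteocyte covariate.

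Reversed differences with the erythroid covariate were -0.11 (Tyms), -0.034 (Cdk1), -0.40 (Cenpf), -0.039 (Nusap1), 0.42 (Cdkn1a) and 0.058 (Ccnd1). With the osteoblast and osteocyte covariate they were -0.014 (Cdk1), -0.17 (Cenpe), -0.24 (Cenpf), -0.051 (Nusap1), 0.45 (Cdkn1a) and 0.14 (Ccnd1). On leaving out 1 mouse, the lowest and highest values were -0.034 and 0.21 for Cenpe and -0.057 and 0.20 for Cenpf. The cause was not tested.

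The genotypes share replicate numbers in the labels. Correlations of same-numbered deviations lay between -0.14 and 0.06. Whether mice of the same number were paired by litter or handling cannot be told from these values, and the labels do not say. A fit with the replicate block gave 14 members at a raw p below 0.05, where 3.32% of all genes were called higher, and 0 after adjustment. Its differences equal those without the block, because each number holds 1 mouse of either genotype, so all 41 stayed above 0. Depth is unknown and limits what can be said of low values.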
